A study of Mus musculus with 11 samples.

Results

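The Abcb1b locus on mouse chromosome 5 was followed through sorted adrenal cells. It comprises 5 of the 49671 genes in the deposited count table: Abcb1b, its paralog Abcb1a, the related transporter gene Abcb4, the short transcript 7330423F06Rik inside an Abcb1b intron, and the flanking gene Rundc3b. They were chosen by name from measured levels of these same libraries, so their levels and differences are given as a description with no test, and nothing is supported with them. All 5 passed the filter on low counts. The libraries came from 6 male Nes-GFP mice, a Nestin reporter strain per the labels, whose GFP (green fluorescent protein) served for the sort; Nes encodes an intermediate filament protein. Cortex and medulla of the adrenal gland were separated by dissection, pooled in 3 groups of 2 mice, digested and sorted, with 180 to 300 cells per tube. The 11 libraries form 4 groups with no treatment: GFP-positive cortex (n = 3), GFP-negative cortex (n = 3), GFP-positive medulla (n = 3) and GFP-negative medulla (n = 2). In both cortical groups libraries 1 and 2 came from mice of about 3.5 months and library 3 from mice of about 2.5 months. GFP-positive medulla library 1 and both GFP-negative medulla libraries came from mice of about 3.5 months, and GFP-positive medulla libraries 2 and 3 from mice of about 2.5 months, so age and gate are partly confounded in the medulla. The labels tie no library to a mouse or pool, so p-values reflect nothing but library-to-library spread, which may be partly technical.

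Abcb1a and Abcb1b are the rodent counterparts of human ABCB1 and encode P-glycoprotein, an ATP-binding cassette (ABC) transporter of the plasma membrane that pumps lipophilic drugs, toxins and some steroids out of the cell. In mice Abcb1a is the main form of the intestinal epithelium and of the capillary endothelium of the brain, and Abcb1b is known as the main form of the adrenal cortex and the pregnant uterus. Abcb4 encodes the transporter that brings phosphatidylcholine into bile, and Rundc3b encodes a protein with a RUN domain, a fold that binds small GTPases. Of 7330423F06Rik the annotation says only that it is a transcript still to be experimentally checked (type TEC).

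Positions are those of mm10. Abcb1b (ENSMUSG00000028970) runs from 8798147 to 8866315 on the plus strand of chromosome 5, with 7990 exon bases. Abcb1a (ENSMUSG00000040584) lies before it on the same strand, from 8660077 to 8748575, with 5480 exon bases. Abcb4 (ENSMUSG00000042476) follows from 8893717 to 8959231 on the same strand, and Rundc3b (ENSMUSG00000040570) lies from 8490334 to 8622952 on the minus strand. 7330423F06Rik (ENSMUSG00000105870) occupies 8831147 to 8831447 on the plus strand, inside an Abcb1b intron of 3263 bases, 2216 bases after the exon before it and 746 bases before the next. Both lie on the same strand, so reads of 7330423F06Rik and of unspliced Abcb1b RNA cannot be told apart. Whether reads were counted by strand is not given in the sources used here, and the kit marks no strand. Reads of opposite strands can therefore not be told apart in 143 exon bases that Abcb1b shares with Gm5106 and 553 that Abcb1a shares with Gm42686, both on the opposite strand.

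The 250 bases before the start of Abcb1b and of Abcb1a are shown because the levels of both genes were higher in GFP-positive cells. Abcb1b is read at chr5:8797897-8798146 and Abcb1a at chr5:8566841-8567090, both on the plus strand of GRCm38 and both from RefSeq. Capitals mark motif matches on either strand.
Abcb1b: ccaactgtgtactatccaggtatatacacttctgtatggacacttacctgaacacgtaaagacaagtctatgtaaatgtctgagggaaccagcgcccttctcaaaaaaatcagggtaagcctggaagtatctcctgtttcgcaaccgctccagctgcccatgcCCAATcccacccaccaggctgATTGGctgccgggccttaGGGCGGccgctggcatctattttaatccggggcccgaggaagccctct
Abcb1a: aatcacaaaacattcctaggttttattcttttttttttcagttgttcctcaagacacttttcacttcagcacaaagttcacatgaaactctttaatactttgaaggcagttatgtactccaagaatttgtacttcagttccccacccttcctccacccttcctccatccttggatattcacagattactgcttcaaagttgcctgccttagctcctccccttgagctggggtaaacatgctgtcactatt

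A RefSeq promoter was matched for 4 of the 5 genes, all but 7330423F06Rik. The RefSeq start of Abcb1a lies 92986 bases before the first base of Abcb1a in the count table, while for Abcb1b both starts fall on the same base. Of 7 motifs searched on both strands, the Abcb1b window held the CCAAT box (CCAAT) at -87 on the plus and -66 on the minus strand and the GC box (GGGCGG) at -48, counted back from the start. The Abcb1a window held none of the 7. The Abcb4 window held 1 CCAAT box and 1 GC box, and the Rundc3b window 1 CCAAT box and 5 GC boxes. Among 32851 promoter windows of the same length, 33.8% held CCAAT and 32.7% held GGGCGG. The other motifs were TATAAA (12.4% of windows), the nuclear receptor element AGGTCA (14.0%), the NR5A1 site CAAGGTCA (1.33%), which contains that element, the AP-1 site TGANTCA (6.75%) and the cyclic AMP response element TGACGTCA (1.55%). A match is a string of letters and not a bound site.

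The coding sequences of Abcb1b and Abcb1a are each 3831 bases long, and 88.0% of their aligned bases are identical, against 74.0% for Abcb1b with Abcb4 and 75.5% for Abcb1a with Abcb4. The aligned 60 bases in which the paralogs differ most are shown from GENCODE M21 transcripts, because reads from such stretches tell the paralogs apart. They are bases 1922 to 1981 of the Abcb1b coding sequence and 1913 to 1972 of Abcb1a, and capitals mark the 25 bases that differ.
Abcb1b: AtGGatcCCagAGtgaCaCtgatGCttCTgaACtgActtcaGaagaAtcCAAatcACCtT
Abcb1a: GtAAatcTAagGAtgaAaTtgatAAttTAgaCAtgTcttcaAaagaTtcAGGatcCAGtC

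Elsewhere the pair is alike, with a longest identical run of 338 bases. Of all stretches of 50 bases in annotated Abcb1b transcripts, 11.1% also occur in Abcb1a, and 16.3% of those of Abcb1a occur in Abcb1b. At 100 bases these shares are 6.04% and 9.03%. Read length and the handling of reads that match both genes are not given in the sources used here, so the split of counts between the paralogs carries that uncertainty.

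The deposited totals lay between 18500690 and 29204212 counts per library, and 3 counts correspond to between 0.104 and 0.157 CPM, the count per 1000000 counts of a library whose size was scaled by TMM (trimmed mean of M values). Reads were amplified in 17 cycles without molecular identifiers, so intervals and floors cover counting error only. Nes, the gene behind the reporter, stood at 44.5 ± 8.19 CPM in GFP-positive cortex and 6.40 ± 1.57 CPM in GFP-negative cortex (SD, n = 3 each). In the medulla it stood at 109 ± 60.2 CPM in GFP-positive cells (SD, n = 3) and 21.1 ± 7.08 CPM in GFP-negative cells (SD, n = 2).

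By counts, Abcb1b was among the highest genes of GFP-positive cells in both tissues. In the GFP-positive cortex it had 2743, 2830.5 and 3250.0 CPM in libraries 1, 2 and 3, against 32.4, 43.2 and 41.3 CPM in the GFP-negative cortex. In the GFP-positive medulla it had 2622, 1831.5 and 3990.5 CPM, against 26.7 and 28.2 CPM in the GFP-negative medulla. Every GFP-positive library lay far above every GFP-negative library of either tissue. Means were 2941 ± 271 CPM in GFP-positive cortex and 39.0 ± 5.75 CPM in GFP-negative cortex (SD, n = 3 each), a 75.5-fold difference (log2 6.24, approximate SE 0.298). In the medulla the mean was 2815 ± 1092 CPM in GFP-positive cells (SD, n = 3) and 27.4 ± 1.08 CPM in GFP-negative cells (SD, n = 2), a 103-fold difference (log2 6.68, SE 0.366). In these bulk libraries fewer cells that express a gene and less RNA of it per cell cannot be told apart.

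**Figure D1:**
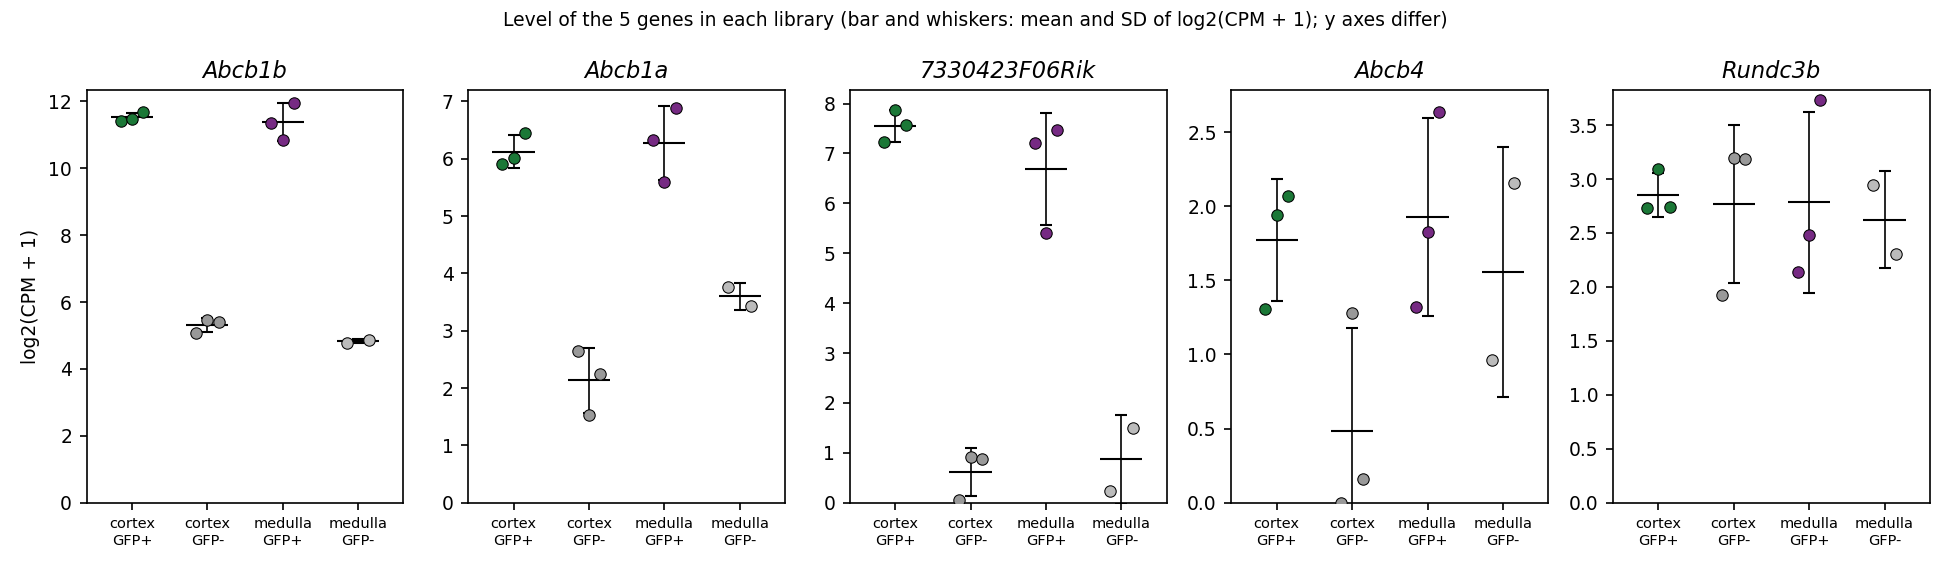
Level of each gene of the locus, as log2(CPM + 1), in each library of the 4 groups; points are libraries, the bar and whiskers their mean and SD, and the y axes differ between panels. Abcb1b, Abcb1a and 7330423F06Rik sit higher in every GFP-positive library than in every GFP-negative library, whereas Rundc3b overlaps between all groups.

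The order of Abcb1b levels was GFP-positive cortex, GFP-positive medulla, GFP-negative cortex and GFP-negative medulla. The GFP-positive groups did not differ beyond their spread, with a log2 difference of 0.06 (SE 0.237, cortex minus medulla) and all 3 cortical libraries inside the range of the medullary ones. Medullary GFP-positive libraries varied more, with a coefficient of variation of 38.8%, against 9.22% in the GFP-positive cortex. The lower pair did not overlap: the GFP-negative cortex had at least 32.4 CPM and the GFP-negative medulla at most 28.2 CPM, a log2 difference of 0.51 (SE 0.271). The share of all genes without overlap between these small groups was not counted. The gate difference in the cortex minus that in the medulla was -0.44 on the log2 scale (SE 0.359). With libraries of about 3.5 months alone, the gate difference was 6.20 in the cortex and 6.58 in the medulla, where age no longer differs between gates and 1 GFP-positive library remains.

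Abcb1b alone held 0.284 ± 0.0350% of all counts in the GFP-positive cortex and 0.288 ± 0.116% in the GFP-positive medulla (SD, n = 3 each). In the GFP-negative cortex it held 0.00404 ± 0.000648% (SD, n = 3), and in the GFP-negative medulla 0.00267 ± 0.000238% (SD, n = 2). By count it ranked between 19 and 23 among all genes in the GFP-positive cortex and between 17 and 29 in the GFP-positive medulla. By the same measure it ranked between 4336 and 5290 in the GFP-negative cortex and between 6094 and 6504 in the GFP-negative medulla. Counts favour genes with long exons. Per exon base Abcb1b ranked between 167 and 234 in the GFP-positive cortex and between 117 and 310 in the GFP-positive medulla. Its ranks per exon base were 7132 to 8013 in the GFP-negative cortex and 9323 to 9478 in the GFP-negative medulla. Even so, Abcb1b was detected in every library, with at least 694 counts.

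Abcb1a followed the same direction at a lower level. How far reads from stretches shared with Abcb1b contributed to its counts was not tested. It had 59.1, 63.9 and 86.1 CPM in the GFP-positive cortex, against 5.26, 1.87 and 3.74 CPM in the GFP-negative cortex. In the GFP-positive medulla it had 79.0, 47.5 and 118 CPM, against 12.6 and 9.83 CPM in the GFP-negative medulla. Every GFP-positive library was above every GFP-negative one. The log2 difference was 4.26 (SE 0.434, 19.2-fold) in the cortex and 2.86 (SE 0.473, 7.24-fold) in the medulla, and the cortical minus the medullary difference was 1.41 (SE 0.572). Between the GFP-negative groups Abcb1a ran opposite to Abcb1b: it averaged 3.63 ± 1.70 CPM in cortex (SD, n = 3) and 11.2 ± 1.99 CPM in medulla (SD, n = 2), without overlap (log2 -1.63, SE 0.433). Here too the share of all genes without overlap was not counted. Among GFP-positive cells the tissues overlapped (log2 -0.22, SE 0.373).

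The balance of the counts given to the paralogs therefore differed between gates, with the same limit on shared stretches. Abcb1b took 97.9%, 97.8% and 97.4% of the counts of both genes in the GFP-positive cortex, against 86.0%, 95.8% and 91.7% in the GFP-negative cortex. In the GFP-positive medulla it took 97.1%, 97.5% and 97.1%, against 67.8% and 74.1% in the GFP-negative medulla. The GFP-positive libraries stayed within a narrow band above all others, and the 95% Wilson interval of the lowest library, GFP-negative medulla 1, reached from 65.0% to 70.6%. Per kb of exon, Abcb1b was 29.4 ± 3.09 times as abundant as Abcb1a in the GFP-positive cortex and 9.20 ± 5.97 times in the GFP-negative cortex (SD, n = 3 each). In the medulla this ratio was 24.1 ± 2.03 in GFP-positive cells (SD, n = 3) and 1.71 ± 0.368 in GFP-negative cells (SD, n = 2). Abcb1b was the more abundant paralog in all 11 libraries.

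**Figure D2:**
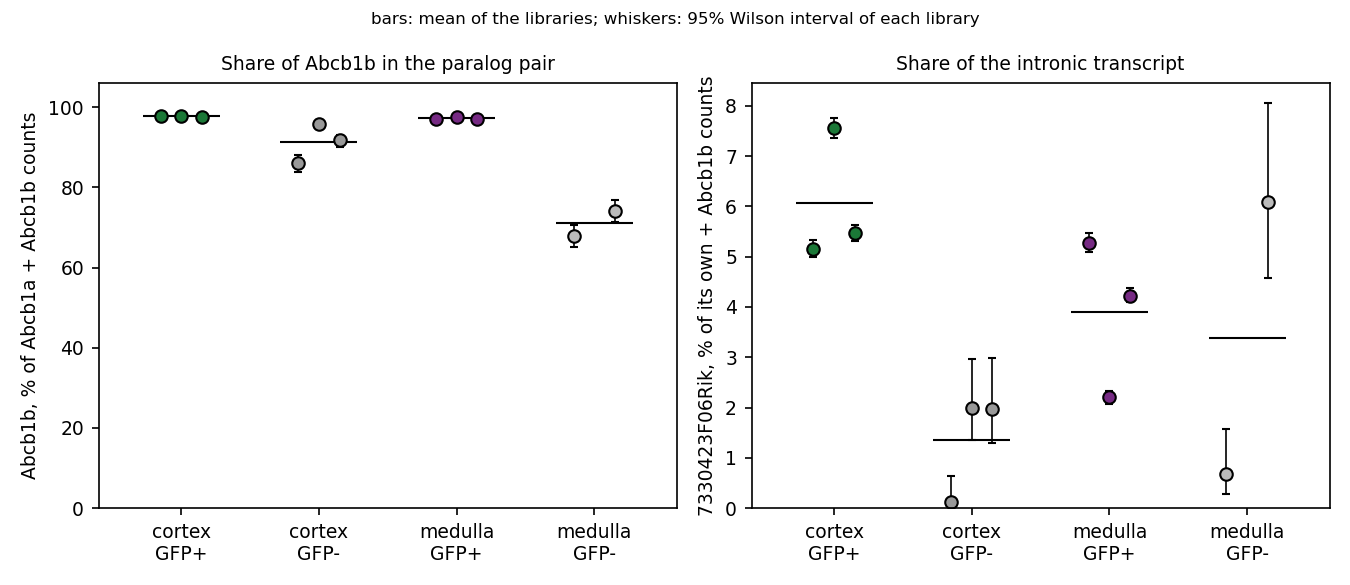
Left, share of Abcb1b in the summed counts of Abcb1a and Abcb1b; right, share of 7330423F06Rik in its own plus Abcb1b counts; each point is a library with its 95% Wilson interval and each bar a group mean. In the left panel the 6 GFP-positive libraries lie between 97.1% and 97.9% and the GFP-negative medulla is lowest, whereas in the right panel the gates of the medulla overlap.

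The intronic transcript 7330423F06Rik showed a wide difference between gates and a wide scatter among libraries, with a coefficient of variation of 58.5% in GFP-positive medulla and 21.7% in GFP-positive cortex. It had 149, 231 and 188 CPM in the GFP-positive cortex, against 0.0373, 0.881 and 0.827 CPM in the GFP-negative cortex, where library 1 held 1 count. In the GFP-positive medulla it had 146, 41.2 and 176 CPM, against 0.183 and 1.83 CPM in the GFP-negative medulla. No GFP-negative library came near a GFP-positive one. The log2 difference was 8.34 (SE 0.941) in the cortex and 6.93 (SE 1.06) in the medulla, and without GFP-negative medulla library 2, which held 45 of the group's 50 counts, the medullary difference was 9.33.

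Its relation to Abcb1b was not fixed. Per base, 7330423F06Rik reached 172 ± 39.6% of the Abcb1b exon level in the GFP-positive cortex and 36.8 ± 29.2% in the GFP-negative cortex (SD, n = 3 each). In the medulla it reached 108 ± 44.7% in GFP-positive cells (SD, n = 3) and 95.2 ± 109% in GFP-negative cells (SD, n = 2). GFP-positive medulla library 2 had the lowest value of its group, 59.7%, and GFP-negative medulla library 1 had 18.2%, against 172% in library 2 of that group. The last 60 of the 301 bases of the transcript, at chr5:8831388-8831447 on the plus strand of GRCm38, are shown because cDNA was primed with an oligo(dT) primer. Capitals mark runs of 3 or more A.
7330423F06Rik: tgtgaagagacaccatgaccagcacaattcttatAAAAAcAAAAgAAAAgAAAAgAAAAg

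A made up 73.3% of the last 30 bases, against 29.2% of the whole transcript. No stretch of 50 bases of 7330423F06Rik occurs in an annotated transcript of another gene. Whether primer binding within the intron contributed to these counts was not tested.

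The flanking genes were scarce in every group. Abcb4 had 1.47, 2.83 and 3.20 CPM in the GFP-positive cortex, against 0, 1.43 and 0.118 CPM in the GFP-negative cortex. In the GFP-positive medulla it had 1.50, 2.54 and 5.22 CPM, against 0.950 and 3.45 CPM in the GFP-negative medulla. The cortical gates were separated by a narrow margin and the medullary gates overlapped, with log2 differences of 2.26 (SE 1.20) and 0.49 (SE 1.28). GFP-negative cortex library 2 held 39 of the 42 Abcb4 counts of its group, and without it the cortical difference was 5.30. Without GFP-negative medulla library 2 the medullary difference was 1.69.

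Rundc3b, on the other side of the paralogs, showed no separation of gates. It had 5.66, 7.52 and 5.67 CPM in the GFP-positive cortex, against 2.80, 8.15 and 8.11 CPM in the GFP-negative cortex. In the GFP-positive medulla it had 3.41, 4.59 and 12.3 CPM, against 6.68 and 3.94 CPM in the GFP-negative medulla. All groups overlapped, with log2 differences between gates of -0.02 (SE 0.542) in the cortex and 0.34 (SE 0.612) in the medulla. Per kb of exon, mean Rundc3b levels stayed between 1.39 and 1.77 CPM over the 4 groups, whereas mean Abcb1b levels spanned 3.43 to 368 CPM.

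In the cortex, 4 of the 5 genes, all but Rundc3b, had every GFP-positive library above every GFP-negative one, where 18.8% of the 20893 genes tested did. In the medulla, 3 of the 5 genes did, all but Abcb4 and Rundc3b, where 25.6% of genes did. These counts follow from how the genes were chosen. A gate difference of at least 5 log2 units in both tissues was found for 240 of the genes tested, Abcb1b and 7330423F06Rik among them. In the authors' deposited table, the Abcb1b log2 fold change was 6.16 (SE 0.253) for the cortex, 6.57 (SE 0.283) for the medulla and 0.01 (SE 0.252) between GFP-positive cortex and medulla.

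**Figure D3:**
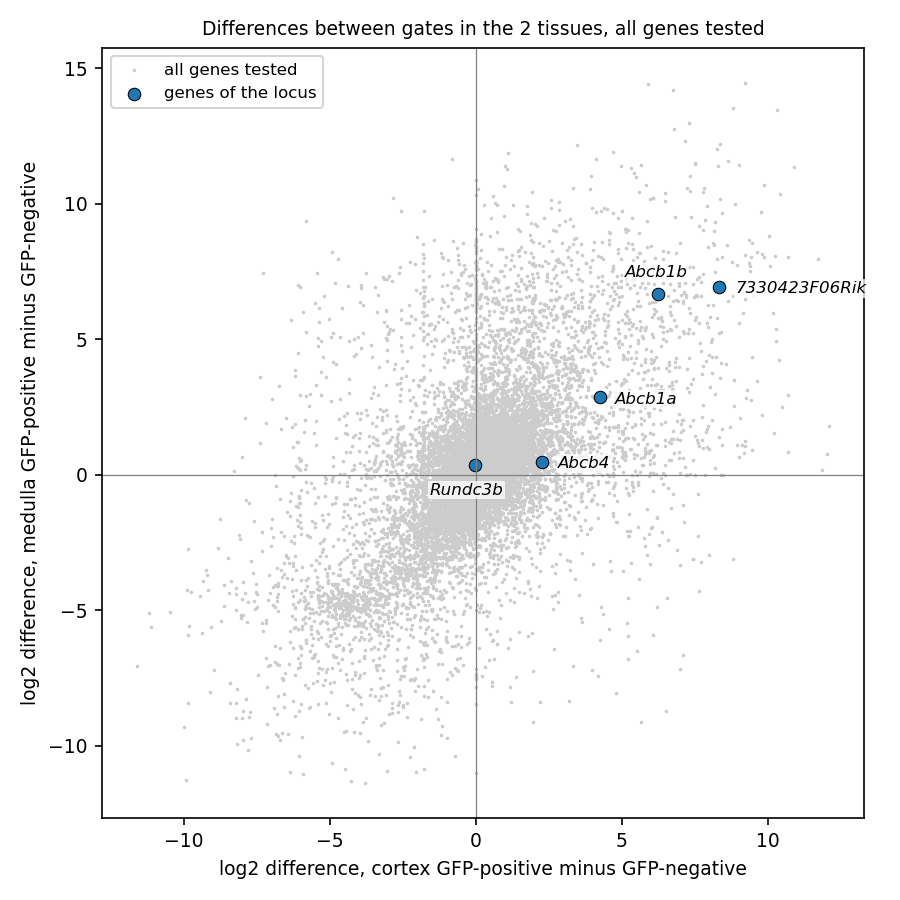
Log2 difference of GFP-positive minus GFP-negative cells in the medulla (y) against the same in the cortex (x); grey points are the 20893 genes tested and blue points the 5 genes of the locus. Abcb1b (6.24 and 6.68) and 7330423F06Rik (8.34 and 6.93) stand at high values on both axes, and Rundc3b stands near 0 on both.

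The genes around the locus were also compared between gates. Of 36 other genes that begin within 1 Mb of Abcb1b, 16 were tested. edgeR's quasi-likelihood test with Benjamini-Hochberg adjustment called 1 of 16 in the cortical gates, where 14.7% of all genes tested were called, and 2 of 16 in the medullary gates, where 21.4% were. Whether these counts differ from the shares of all genes was not tested. In the cortex the call was Steap4, a metalloreductase gene at -838 kb from the Abcb1b start, at 7.37 ± 1.63 CPM in GFP-positive and 0.0734 ± 0.127 CPM in GFP-negative cells (SD, n = 3 each; log2 6.53, adjusted p = 0.0171). In the medulla Gm17936, inside the Abcb4 span, rose, at 42.0 ± 18.5 CPM in GFP-positive cells (SD, n = 3) and 7.44 ± 3.58 CPM in GFP-negative cells (SD, n = 2; log2 2.49, edgeR adjusted p = 0.00218). Dbf4, the activating subunit of the Cdc7 kinase of DNA replication, fell (log2 -2.43, edgeR adjusted p = 0.0436). Gm5106, whose exons overlap Abcb1b on the other strand, had 1.80 ± 0.0553 CPM in GFP-positive and 0.349 ± 0.209 CPM in GFP-negative cortex (SD, n = 3 each), a log2 difference of 2.35 that did not pass (edgeR adjusted p = 0.103). The cortical differences that did not pass lay between -1.01 for Dbf4 and 2.35 for Gm5106. Without GFP-negative cortex library 1 or 3 the adjusted p of Steap4 was 0.0544 or 0.0586 in edgeR, and that of Dbf4 in the medulla lay between 0.0584 and 0.167 without 6 of the libraries. A fit of the 7 libraries of about 3.5 months alone, which holds 1 or 2 per group and leaves 3 residual degrees of freedom, ended the calls of Steap4 (adjusted p = 0.152) and Dbf4 (adjusted p = 0.154). The cortical count was 0 without GFP-negative cortex library 1 or 3 and 2 without GFP-positive medulla library 2 or either GFP-negative medulla library. The medullary count was 1 without GFP-negative cortex library 2 or 3, GFP-positive medulla library 1 or 3, or GFP-negative medulla library 1.

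**Figure D4:**
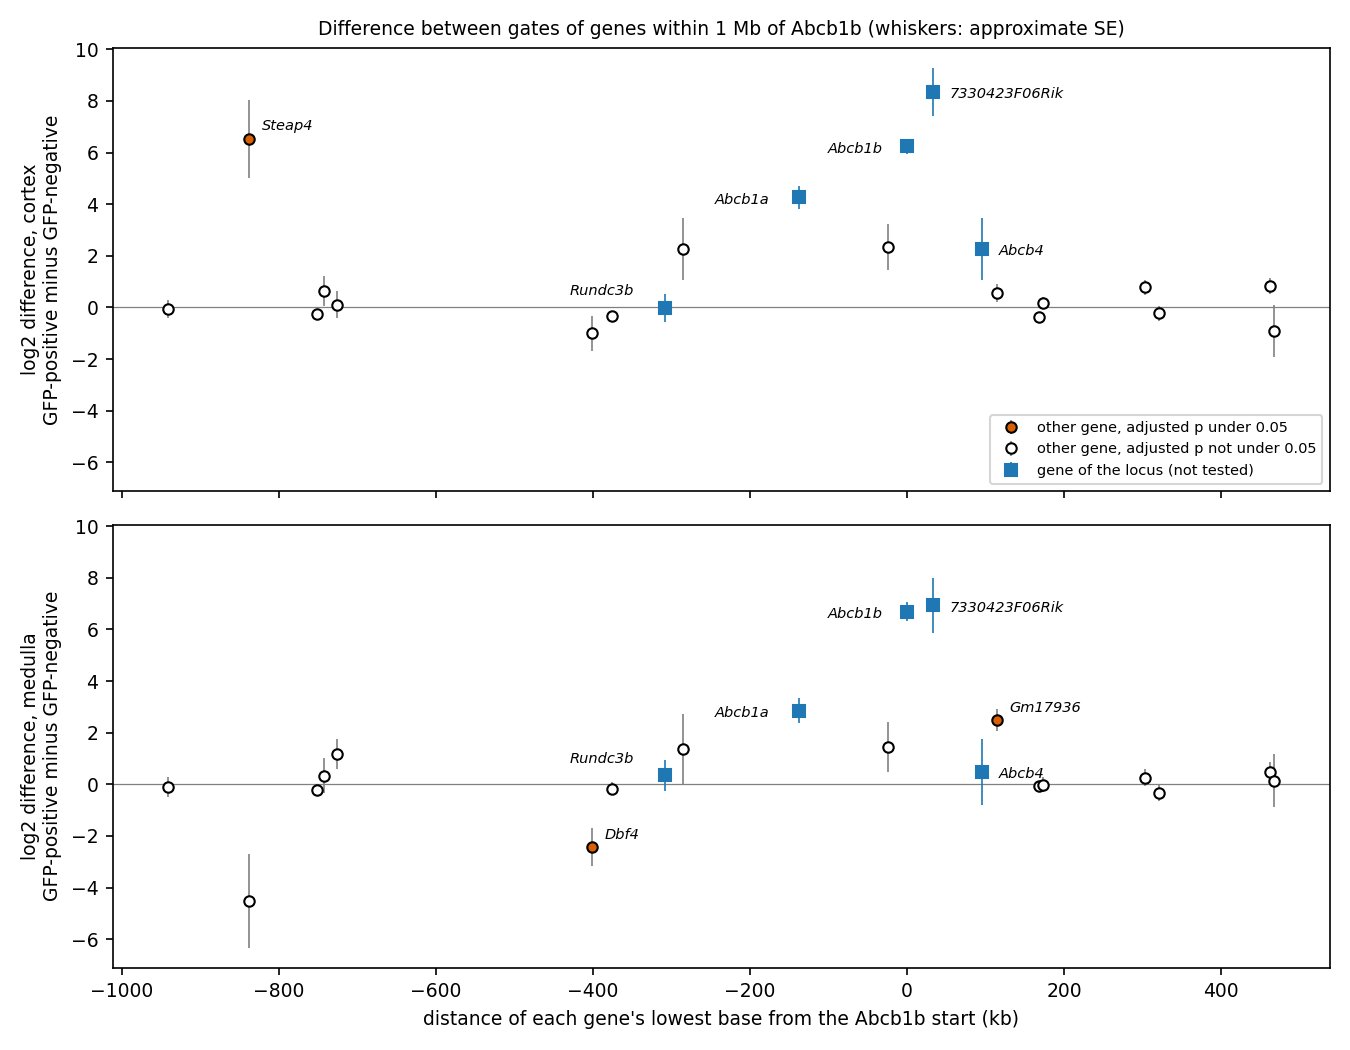
Log2 difference of GFP-positive minus GFP-negative cells in cortex (top) and medulla (bottom) against the distance in kb of each gene's lowest base from the Abcb1b start; squares are the 5 genes of the locus and circles the 16 other genes tested, with approximate SE as whiskers. In both panels Abcb1b and 7330423F06Rik stand above every other gene within 500 kb, and filled circles passed edgeR's test: Steap4 in the cortex, Gm17936 and Dbf4 in the medulla.

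Between tissues, 3 of the 16 neighbours passed among GFP-positive cells, where 15.5% of all genes did, and 3 among GFP-negative cells, where 18.6% did. Adam22, a neuronal surface protein of the ADAM family, was lower in GFP-positive cortex, at 4.45 ± 2.45 CPM, than in GFP-positive medulla, at 47.8 ± 19.5 CPM (SD, n = 3 each; log2 -3.42, edgeR adjusted p = 0.00326). It was also lower in GFP-negative cortex than in GFP-negative medulla (log2 -2.34, edgeR adjusted p = 0.0192), where the adjusted p was 0.0722 without GFP-negative medulla library 1 and 0.0575 without library 2. Between GFP-positive cells 9330182L06Rik was lower in the cortex (log2 -4.66, edgeR adjusted p = 0.0182, and 0.0616 without GFP-positive cortex library 3), and Steap4 was higher, with 500 counts in cortex and 1 in medulla, a 495-fold ratio whose 95% counting interval spans 88.5 to 19597. Among GFP-negative cells 9330182L06Rik was also lower in the cortex (log2 -3.60, edgeR adjusted p = 0.0422), and Gm17936 was higher (log2 1.62, edgeR adjusted p = 0.0199). Without GFP-negative cortex library 1, 2 or 3 the adjusted p of 9330182L06Rik was 0.0524, 0.106 or 0.0631. That of Gm17936 was 0.0569 without GFP-negative cortex library 1. In the fit of the older mice alone, the edgeR adjusted p between GFP-positive tissues was 0.143 for Adam22 and 0.168 for 9330182L06Rik, Steap4 did not pass either, and that of Adam22 between GFP-negative tissues was 0.0784. The GFP-negative count was 1 without GFP-negative cortex library 1 or GFP-negative medulla library 1 and 0 without GFP-negative medulla library 2.

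Abcb1b stood first of 53 ABC genes per kb of exon in both GFP-positive groups, at 368 ± 33.9 CPM per kb in cortex and 352 ± 137 CPM per kb in medulla (SD, n = 3 each). The next gene was Abce1, a ribosome recycling factor, at 27.0 CPM per kb in GFP-positive cortex, and Abca8a, a lipid transporter, at 57.5 CPM per kb in GFP-positive medulla. In GFP-negative cells Abcb1b stood 11th in cortex, at 4.88 ± 0.720 CPM per kb (SD, n = 3), and 20th in medulla, at 3.43 ± 0.135 CPM per kb (SD, n = 2). Abcf2 stood first in both, at 32.5 CPM per kb in cortex and 22.7 CPM per kb in medulla. Abcb1a stood 7th and 8th in GFP-positive cortex and medulla and 28th and 25th in GFP-negative cortex and medulla, and Abcb4 stood between 35th and 36th in all 4 groups.

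Of 50 other ABC genes, 37 were tested. In the cortex 9 were higher and 4 lower in GFP-positive cells, and in the medulla 8 were higher and 6 lower, so that 35.1% and 37.8% of the tested genes were called against the 14.7% and 21.4% of all genes. Their median log2 difference was 0.16 in the cortex and 0.10 in the medulla, beside 0.03 and 0.09 over all genes tested. Abca8a and its neighbour Abca8b were higher in both tissues. Abca8a had 48.1 ± 14.1 CPM in GFP-positive and 0.344 ± 0.561 CPM in GFP-negative cortex (SD, n = 3 each; log2 7.08, edgeR adjusted p = 0.000905), and its medullary difference was 6.35 (edgeR adjusted p = 0.00130). For Abca8b these values were 4.87 (edgeR adjusted p = 0.00138) and 5.37 (edgeR adjusted p = 0.00126). Abcc8, the sulfonylurea receptor of a potassium channel, held 94 counts in GFP-positive and 1 in GFP-negative cortex (edgeR adjusted p = 0.00855); the ratio of 110 had 95% counting limits of 19.2 and 4386. In the medulla it held 302 counts in GFP-positive and 1 in GFP-negative cells (edgeR adjusted p = 0.00626), and the ratio was 233 with limits of 41.6 and 9248.

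Abcg1, which exports cholesterol, and Abcg3 fell in both tissues. Abcg1 had 2.21 ± 1.25 CPM in GFP-positive and 24.1 ± 9.01 CPM in GFP-negative cortex (SD, n = 3 each; log2 -3.44, edgeR adjusted p = 0.00176), and its medullary difference was -3.55 (edgeR adjusted p = 0.00114). Abcg3 differed by -4.25 in the cortex (edgeR adjusted p = 0.0119) and -6.94 in the medulla (edgeR adjusted p = 0.00137). Abca9 and Abcc3, which exports organic anions, also fell in both tissues. Abca9 differed by -2.94 on the log2 scale in the cortex (edgeR adjusted p = 0.00465) and -3.53 in the medulla (edgeR adjusted p = 0.00149). For Abcc3 the differences were -2.59 in the cortex (edgeR adjusted p = 0.00938) and -3.72 in the medulla (edgeR adjusted p = 0.00142). Among libraries of about 3.5 months alone, Abcc8 had an edgeR adjusted p of 0.126 in the cortex and 0.0894 in the medulla, and Abcg1 one of 0.0781 in the medulla. None of the 37 passed for the interaction of gate and tissue in edgeR or DESeq2, where 1.61% of all genes passed in edgeR and 1 of the 37 had an unadjusted p under 0.05.

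**Figure D5:**
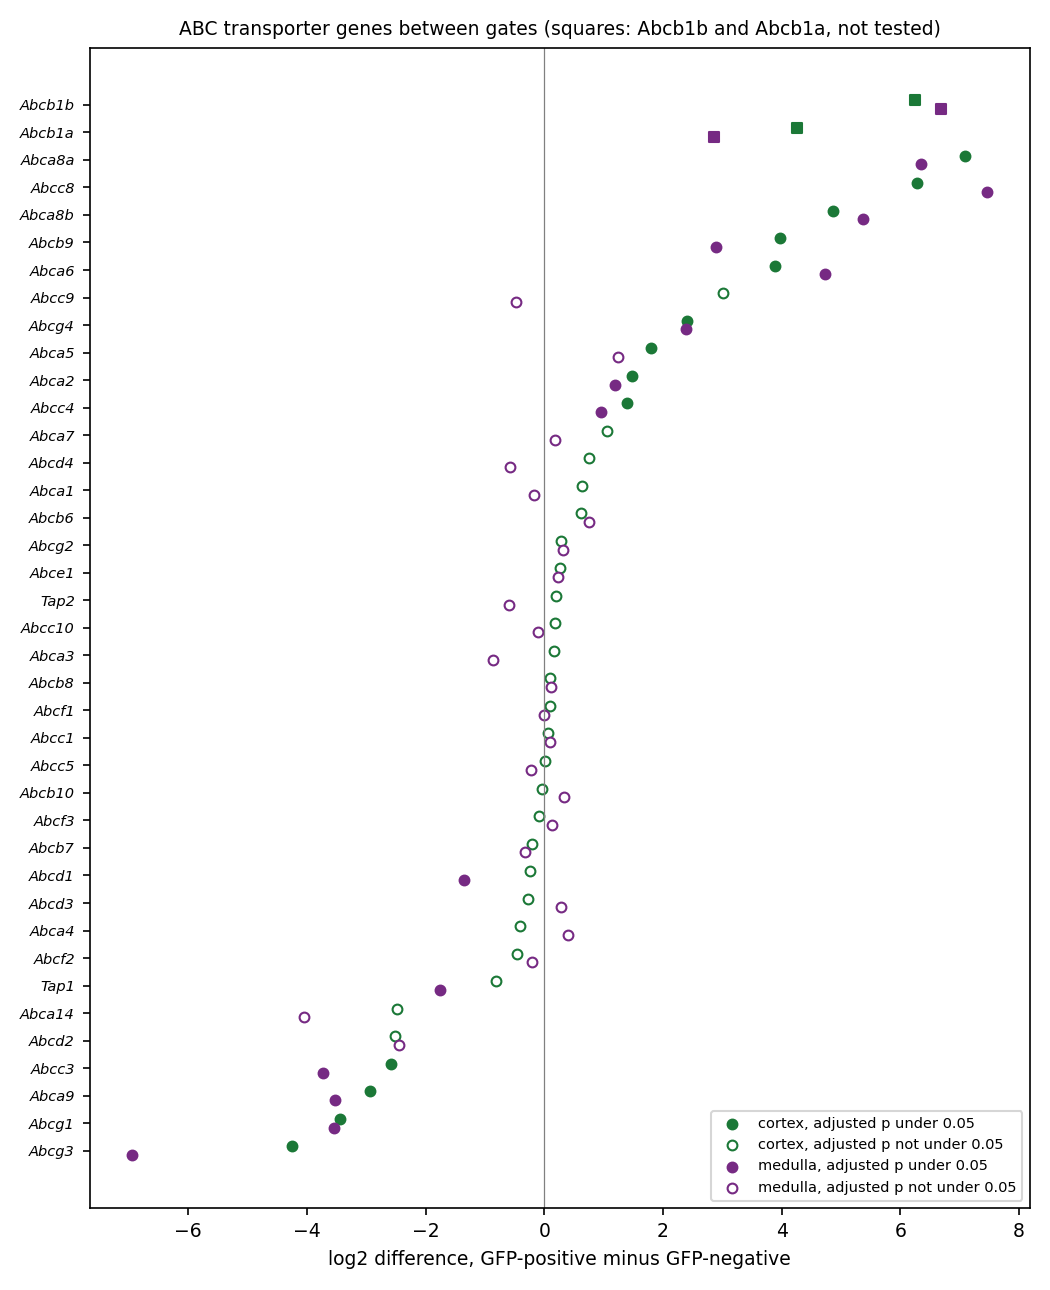
Log2 difference of GFP-positive minus GFP-negative cells for the 37 other ABC genes tested, ordered by the cortical value, in cortex (green) and medulla (purple), with Abcb1b and Abcb1a as squares on top. Filled circles passed edgeR's test; Abca8a, Abcc8 and Abca8b lie at the upper end and Abcg3 and Abcg1 at the lower end in both tissues.

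Between GFP-positive cortex and medulla, 1 ABC gene was higher and 3 were lower, and between GFP-negative cortex and medulla 1 was higher and 9 were lower. These are 10.8% and 27.0% of the genes tested, beside 15.5% and 18.6% of all genes. Abce1 was 1.48-fold higher in GFP-positive cortex, at 162 ± 11.2 CPM, than in GFP-positive medulla, at 110 ± 12.3 CPM (SD, n = 3 each; edgeR adjusted p = 0.0209). Without GFP-positive cortex library 1 or GFP-positive medulla library 2 or 3 its adjusted p was 0.0636, 0.0732 or 0.0542. Abca8a differed by -2.91 on the log2 scale between GFP-positive cortex and medulla (edgeR adjusted p = 0.0165, but 0.0623 without GFP-positive cortex library 1 and 0.0525 without GFP-positive medulla library 2). In the older mice alone the edgeR adjusted p was 0.415 for Abce1 and 0.212 for Abca8a. The count of 4 was 1 without GFP-positive cortex library 1, 2 without GFP-positive cortex library 2 or 3 or GFP-positive medulla library 1, and 0 without GFP-positive medulla library 2. The count of 10 was 5 without GFP-negative cortex library 1, 6 without GFP-negative cortex library 2 and 2 without GFP-negative medulla library 2.

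A list of 29 transcription factors and cofactors known as regulators of Abcb1 genes gave 27 tested members. In the cortex 4 were higher and 3 lower in GFP-positive cells, and in the medulla 1 was higher and 8 lower, with medians of -0.06 and -0.35 on the log2 scale beside 0.03 and 0.09 over all genes tested. The called genes were 25.9% and 33.3% of the list, beside 14.7% and 21.4% of all genes. Jun, a subunit of AP-1, had 316 ± 18.8 CPM in GFP-positive and 131 ± 12.6 CPM in GFP-negative cortex (SD, n = 3 each; log2 1.26, edgeR adjusted p = 0.00211). Cebpb was higher in GFP-positive cortex (log2 2.10, edgeR adjusted p = 0.00910). Rxrg, a retinoid X receptor, held 104 counts in GFP-positive and 0 in GFP-negative cortex, so that it was at least 40.5-fold higher, taking 3 counts over all GFP-negative cortex libraries as the limit (edgeR adjusted p = 0.0246). Its adjusted p lay between 0.0584 and 0.0642 without GFP-positive cortex library 2 or any 1 of the GFP-negative cortex libraries. Foxo1, a forkhead factor, had 105 ± 28.1 CPM in GFP-positive medulla (SD, n = 3) and 21.2 ± 5.24 CPM in GFP-negative medulla (SD, n = 2; log2 2.30, edgeR adjusted p = 0.000356). Foxo1 was also higher in GFP-positive cortex (log2 1.04, edgeR adjusted p = 0.0132, and 0.0566 without GFP-negative cortex library 3).

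Nfe2l2, the factor of the oxidative stress response, fell in both tissues. It had 197 ± 29.9 CPM in GFP-positive and 304 ± 17.1 CPM in GFP-negative cortex (SD, n = 3 each; log2 -0.63, edgeR adjusted p = 0.0132), and its medullary difference was -1.71 (edgeR adjusted p = 7.89e-05). Tcf7l2, a factor of the Wnt pathway, and Nfkb1 fell in the medulla (log2 -1.45, edgeR adjusted p = 0.000521, and log2 -1.43, edgeR adjusted p = 0.00209). Tcf7l2 was also called lower in GFP-positive cortex (log2 -0.63, edgeR adjusted p = 0.0323). That adjusted p lay between 0.0539 and 0.0926 without GFP-positive cortex library 1 or 3 or GFP-negative cortex library 1, 2 or 3. With libraries of about 3.5 months alone, the edgeR adjusted p in the cortex was 0.137 for Nfe2l2, 0.0724 for Cebpb and 0.165 for Rxrg, and that of Nfkb1 in the medulla was 0.0698. The cortical count of 7 was 4 without GFP-negative cortex library 1 or 2 and 3 without library 3. Between GFP-positive cortex and medulla 1 regulator was higher, Trp53 (log2 0.72, edgeR adjusted p = 0.0139), and 4 were lower, among them Fos (log2 -1.75, edgeR adjusted p = 0.00275), Egr1 and Foxo1. Between GFP-negative cortex and medulla 9 were lower, Cebpb and Egr1 among them. The called regulators were 18.5% of the list between GFP-positive and 33.3% between GFP-negative tissues, beside 15.5% and 18.6% of all genes. Trp53 and Fos lost their calls in the fit of libraries of about 3.5 months, with edgeR adjusted p-values of 0.186 and 0.0510 between GFP-positive tissues.

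The profile of Abcb1b over the 11 libraries was compared with that of every tested gene by the root mean square difference of log2(CPM + 1), each gene centred on its own mean. The nearest gene was Mgst2, a microsomal glutathione transferase gene, at 0.38 log2 units. It had 120 ± 8.78 CPM in GFP-positive and 0.248 ± 0.190 CPM in GFP-negative cortex (SD, n = 3 each). Sbsn followed at 0.44, 7330423F06Rik at 0.56, and then Col5a3, Mapk13, Aif1l, 2010109I03Rik, Srd5a2, a steroid reductase gene, Aldh1a7 and Ackr3, at up to 0.82. Abcb1a stood 51st, Abcb4 1669th at 2.77 and Rundc3b 8594th at 3.12, where the median gene stood at 3.17. The choice of measure matters here: with a pseudocount of 0.1 CPM 2 of these 10 genes stayed among the nearest 10, and with profiles scaled to unit SD 4 did.

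Markers of several cell types moved with the gates beside Abcb1b. Of all genes tested, edgeR called 14.7% between the cortical gates and 21.4% between the medullary gates. The summed level of 7 markers of steroid cells lay between 56766 and 65207 CPM in GFP-positive cortex and between 32973 and 37816 CPM in GFP-negative cortex, with 2 markers called higher and 1 lower. In the medulla the sum lay between 21165 and 37436 CPM in GFP-positive cells and between 7966 and 15154 CPM in GFP-negative cells, with 4 called higher and 1 lower. Of 4 zona fasciculata markers, 2 were higher and 1 lower in GFP-positive cells of each tissue, and of 6 zona glomerulosa markers 5 were lower in each. The GFP-positive tissues, whose Abcb1b levels overlapped, did not overlap in the sum of steroid cell markers. Nor did they overlap in the sums of zona fasciculata, zona glomerulosa, chromaffin, Schwann cell and glial, or macrophage markers. In the sums of endothelial, pericyte and smooth muscle, fibroblast, lymphocyte and erythroid markers they overlapped. Of 8 Schwann cell and glial markers, 7 were higher in GFP-positive cells of each tissue, at sums of 201 to 226 CPM in GFP-positive and 2.95 to 10.8 CPM in GFP-negative cortex, and 1615 to 3709 CPM in GFP-positive and 14.0 to 22.4 CPM in GFP-negative medulla, where Sox10 and Foxd3 were at 0. All 8 macrophage markers were lower in GFP-positive cells of each tissue, at 49.7 to 188 CPM in GFP-positive and 2019 to 3462 CPM in GFP-negative cortex, and 223 to 538 CPM in GFP-positive and 11025 to 12050 CPM in GFP-negative medulla. Their part in the levels of Abcb1b was not tested.

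Chromaffin markers summed to between 4.72 and 102 CPM in GFP-positive cortex, where Pnmt was at 0, and to between 0.441 and 1.57 CPM in GFP-negative cortex, where Dbh, Pnmt and Chgb were at 0. They summed to between 5167 and 9306 CPM in GFP-positive and between 5020 and 7770 CPM in GFP-negative medulla. Of the 8 chromaffin markers, edgeR called 3 higher in GFP-positive cortex, beside 14.7% of all genes tested. Between the medullary gates edgeR and DESeq2 called 0 of the 8, and 1 had an unadjusted p under 0.05. Endothelial markers, of interest beside Abcb1a, summed to between 72.9 and 223 CPM in GFP-positive and 68.6 and 185 CPM in GFP-negative cortex. In the medulla they summed to between 213 and 314 CPM in GFP-positive and 271 and 930 CPM in GFP-negative cells. Between gates edgeR and DESeq2 called 0 of the 9 endothelial markers in either tissue, and 1 of 9 had an unadjusted p under 0.05 in each tissue. Of 6 markers of pericytes and smooth muscle, 5 were higher in GFP-positive cortex and 2 in GFP-positive medulla, and of 6 fibroblast markers 1 was higher in GFP-positive cortex, while in the medulla 1 was higher and 2 were lower. Of 2 lymphocyte markers tested, 1 was lower in GFP-positive cells of each tissue, and no erythroid marker passed the filter on low counts, although their sum reached 810 CPM in 1 GFP-positive cortex library.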

How the data were processed

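RNA of sorted mouse adrenal cells was measured in 11 libraries of 4 groups, assigned from their titles. The authors deposited whole-number counts of reads per gene with exon lengths, not normalized. Per the submitters' processing notes, the build was mm10, and the tools named include GSNAP, featureCounts 1.6.0 and DESeq2 1.18.1. Another 3 tables hold the authors' log2 fold changes with standard errors, per the file headers; their 17 per-library columns were not used. Spike-in sequences (92, with 10 counts) were left out.

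Of the identifiers, 25509 took their symbol from the authors' tables, 23915 from a reference table and 247 had none. Counts were fitted with edgeR 4.0.16 in R 4.3.3 (filterByExpr by group, TMM, glmQLFit, glmQLFTest), with all 11 libraries in 1 fit and 7 residual degrees of freedom. Benjamini-Hochberg adjustment ran over the 20893 genes kept, with a threshold of 0.05. The approximate SE is the absolute log2 difference divided by the square root of F. The pipeline was tested on simulated data. DESeq2 1.42.0, other scalings, no filter, a replicate block, only the groups compared, only the older mice and leaving out each library were alternatives. Coding sequences were aligned with Biopython 1.88. Per-kb values divide by the deposited exon length.

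The members and lists were chosen with earlier results of these data known. Named from the ABC and regulator lists were the called genes with the largest changes, up to 3 per direction and comparison with a mean of at least 1 CPM, of which the text gives most, and from the neighbours each that was tested, of which the text gives those called and the range of the rest in the cortex. For Abca9, Abcc3, Tcf7l2 and Foxo1 the text also gives the call in the other tissue. Total counts per library limit low levels: 3 counts are the floor, and shares carry 95% Wilson intervals.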

Additional observations from a re-analysis of the deposited data

Results flagged for a closer look

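For 3 genes of the lists, the gate difference in the cortex differed from that in the medulla by edgeR's test of the interaction, adjusted over 20893 genes. They were 2 of 27 regulators, 1 of 16 neighbours and 0 of 37 other ABC genes tested, beside 1.61% of all genes tested. For Nfe2l2 the cortical minus the medullary log2 difference was 1.09 (SE 0.204, edgeR adjusted p = 0.0336), with 197 ± 29.9 CPM in GFP-positive and 304 ± 17.1 CPM in GFP-negative cortex, and 160 ± 17.3 CPM in GFP-positive and 525 ± 35.0 CPM in GFP-negative medulla. For Jun it was 1.49 (SE 0.282, edgeR adjusted p = 0.0344), with 316 ± 18.8 CPM in GFP-positive and 131 ± 12.6 CPM in GFP-negative cortex, and 320 ± 46.3 CPM in GFP-positive and 375 ± 140 CPM in GFP-negative medulla. For Steap4 it was 11.06 (SE 2.29, edgeR adjusted p = 0.0451), a fitted value that rests on few counts: 500 in GFP-positive cortex, 6 in GFP-negative cortex, all in library 2, 1 in GFP-positive medulla and 24 in GFP-negative medulla, all in library 1. The ages of the medullary libraries differ between gates and those of the cortical ones do not, and the part of age in these differences was not tested. DESeq2 also called all 3 (adjusted p = 0.000128 for Nfe2l2, 0.00023 for Jun and 0.000273 for Steap4). Of 17 alternatives, Nfe2l2 and Jun passed in 6 each and Steap4 in 5. With 1 library left out, edgeR's adjusted p lay between 0.0383 and 0.0839 for Nfe2l2, between 0.0205 and 0.0846 for Jun and between 0.0436 and 1.000 for Steap4. Nfe2l2 passed without GFP-positive cortex library 3 or GFP-positive medulla library 3, Jun without GFP-positive medulla library 3 or GFP-negative medulla library 1, and Steap4 without GFP-negative medulla library 2; leaving out any other library ended the call. With libraries of about 3.5 months alone, which leaves 1 library in the GFP-positive medulla, the calls did not hold. The cortical minus the medullary log2 difference in that fit was 1.37 for Nfe2l2, 1.66 for Jun and 12.50 for Steap4.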

How the results depend on the processing

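Over 18 alternatives the Abcb1b log2 difference lay between 6.12 and 6.32 for the cortical gates, 6.34 and 6.91 for the medullary gates, -0.17 and 0.40 between GFP-positive tissues and 0.37 and 0.60 between GFP-negative tissues. With libraries of about 3.5 months alone, Abcb4 moved to -0.55 and Rundc3b to -0.64 for the medullary gates. Between GFP-negative tissues 7330423F06Rik lay between -1.64 and 1.64. Of the neighbours, DESeq2 called 2 and a fit of only the groups compared called 3 in the cortical gates, against 1. Libraries of the same replicate number in different groups had correlations of deviations between -0.0085 and 0.0782. Libraries of unlike numbers were not compared, so these values cannot show whether the numbers pair the libraries. With replicate numbers as a block, the neighbours called numbered 1 in the medullary gates and 1 between GFP-negative tissues. The Abcb1b difference in that fit was 6.23 in the cortical and 6.50 in the medullary gates. Leaving out 1 library each, called ABC genes numbered 0 to 4 between GFP-positive and 2 to 11 between GFP-negative tissues, called regulators 3 to 6 in the cortical gates, and called neighbours 0 to 2 in the cortical gates, 1 to 3 in the medullary gates and 0 to 3 between GFP-negative tissues. Where this leaves 1 library in the GFP-negative medulla, it is assumed to vary like the other groups. The named ABC and regulator genes were refitted under the same alternatives, a choice made after seeing the data, and no named difference turned its direction. With libraries of about 3.5 months alone, 6 of 12 named calls passed in the cortical gates, 7 of 10 in the medullary gates, 0 of 8 between GFP-positive and 4 of 7 between GFP-negative tissues; that fit has 3 residual degrees of freedom. The causes were not tested. The depth allows no statement below about 0.157 CPM.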
